A study of Mus musculus with 2 samples.

Results

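Reticular cells in a heat shock state were the reticular bone marrow stromal cells with the most transcripts of Hspa1a, Hspa1b and Dnajb1 in their library. They numbered 658 of 4386 reticular cells and of 7332 cells in all, with 229 of 1527 reticular cells in Mouse #1 and 429 of 2859 in Mouse #2. A cell was taken as reticular when Adipoq, Lpl and Hp together had at least 10 UMIs per 10000 and more than Alpl, Wif1, Kcnk2 and Spp1 together, with at most 1 UMI of Ptprc (CD45) and at most 1 of Cdh5 (VE-cadherin). A UMI is the molecular tag of 1 captured transcript. The summed Hspa1a, Hspa1b and Dnajb1 UMIs per 10000 formed a heat shock score, and reticular cells at or above the 85th percentile of the score in their own library formed the group. The other 1298 and 2430 reticular cells were the comparison.

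The cells came from femurs of 2 mice at postnatal day 28, both of genotype Cxcl12(GFP/+); Cxcl12-iCreER; R26R(tdTomato/+) and both given tamoxifen at postnatal day 21, so that no treatment, genotype or age was compared. Cxcl12-GFP reports transcription of the chemokine gene Cxcl12 from its own locus, and the creER is a bacterial artificial chromosome transgene carrying Cxcl12 sequence, which switches on tdTomato after tamoxifen. Bones were dissociated with Liberase and Pronase in a warmed shaking incubator, GFP+ cells were sorted, and each mouse gave 1 droplet library. One label field names tdTomato+ cells as the sorted population while the others name GFP+ cells. Cells that were not dissociated were not analysed here, so the state of these cells in the marrow and their state after dissociation and sorting cannot be told apart.

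The libraries held 54940400 and 88790688 UMIs and 2750 and 4582 cells. They shared 7 cell barcodes, of which 4 in Mouse #1 and 1 in Mouse #2 were reticular, and 2 and 0 belonged to the heat shock group.

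Heat shock proteins are chaperones that hold unfolded proteins in solution, refold them or pass them on for degradation. When unfolded protein accumulates, heat shock factor 1 forms trimers, binds heat shock elements (repeats of the letters GAA in alternating orientation) and drives the inducible HSP70 genes Hspa1a and Hspa1b, the HSP40 gene Dnajb1 and other chaperones. CXCL12-abundant reticular cells are perivascular stromal cells that feed hematopoietic cells with CXCL12, stem cell factor (Kitl) and IL-7, and carry the leptin receptor and adipocyte-related transcripts.

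Promoter sequence of the chaperone genes that the comparison turns on is shown because it holds the letters of that element. The windows run 250 bases before to 50 bases after the start in the RefSeq promoter table (GRCm38.p6). They were searched on both strands for GAANNTTCNNGAA and TTCNNGAANNTTC, which are reverse complements of each other, allowing 1 mismatch among the 9 fixed letters. In the lines that follow, capitals mark the match, or overlapping matches, and each sequence reads 5′ to 3′ along the strand of its gene.

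Hspa1a (chr17:34972247-34972276, minus strand): agacgcGAAACTGCTGGAAGATTCctggcc
Hspa1b (chr17:34959329-34959358, minus strand): agacgcGAAACTGCTGGAAGATTCctggcc
Hspb1 (chr5:135887794-135887823, plus strand): caacaagaGAAGTTTCCAGATgggggcaga
Hsph1 (chr5:149636279-149636308, minus strand): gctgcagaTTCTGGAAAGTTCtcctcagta
Dnaja1 (chr4:40722331-40722360, plus strand): aaaaaagcCTCTAGAAAATTCtacgaggct
Dnaja4 (chr9:54699453-54699482, plus strand): ccgccgGAACCTCCGCGAACGTTCtgggcc
Dnajb4 (chr3:152193838-152193867, minus strand): gttcgctgTTCTAGAAAGTACagagacacg
Hspe1 (chr1:55088053-55088082, plus strand): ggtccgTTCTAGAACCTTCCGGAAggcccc

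The windows of Hspa1a and Hspa1b printed the same letters, and the letters printed for Hspe1 lie before its start and inside Hspd1, which overlaps Hspe1 on the opposite strand. More than 1 window was searched for Hsph1 (2), Dnaja1 (3), Dnaja4 (2) and Dnajb4 (2), which gives more places for a match. The letters printed for these 4 genes lie inside the annotated gene. The match of Hsph1 began 15 bases after the start of its window's transcript, and the others before theirs. Of all 27025 genes in the promoter table, 0.662% held an exact match and 8.15% a match with up to 1 mismatch, and among the 9469 tested genes with a promoter the latter share was 6.51%. Hsph1 and Hspe1 matched exactly, and the others with 1 mismatch. Dnajb1 held no match in its window. Set beside the comparison given further on, a match was found in 5 of the 5 cytosolic chaperones with a promoter that were higher with the mouse as a block and in 2 of the 9 others, and in 25 of 158 genes (15.8%) of all those higher with the block. It was found in 1 of 5 co-chaperones higher with the block and in 4 of the 12 others, and in 2 of 6 TRiC subunits (Cct2 and Cct5), none of which was called. It was found in 1 of 14 immediate early genes higher with the block and in 0 of 4 such chaperones of the endoplasmic reticulum. A match of letters is a description of the window and not a bound site. Hsp90aa1, Hspa8 and Hsp90ab1 had no entry in the table.

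The values of the score describe how the group was made, and no test was applied to them. The threshold was 9.52 UMIs per 10000 in Mouse #1 and 19.0 in Mouse #2. The members just inside had scores of 9.61 and 19.01, and the cells just outside had 9.51 and 18.92. The scores ran through the threshold without a gap, and 28 members and 30 other cells of Mouse #1, and 51 members and 61 other cells of Mouse #2, lay within 20% of it. The group is therefore a range of a measured score and not a separate type. The median score was 21.2 in members of Mouse #1 (highest 235) and 40.6 in members of Mouse #2 (highest 247), against 0.757 and 0.969 in the other reticular cells. None of the 3 transcripts was captured in 37.8% and 35.0% of the other cells. Members held 78.1% and 77.1% of all reticular UMIs of the 3 genes.

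**Figure D1:**
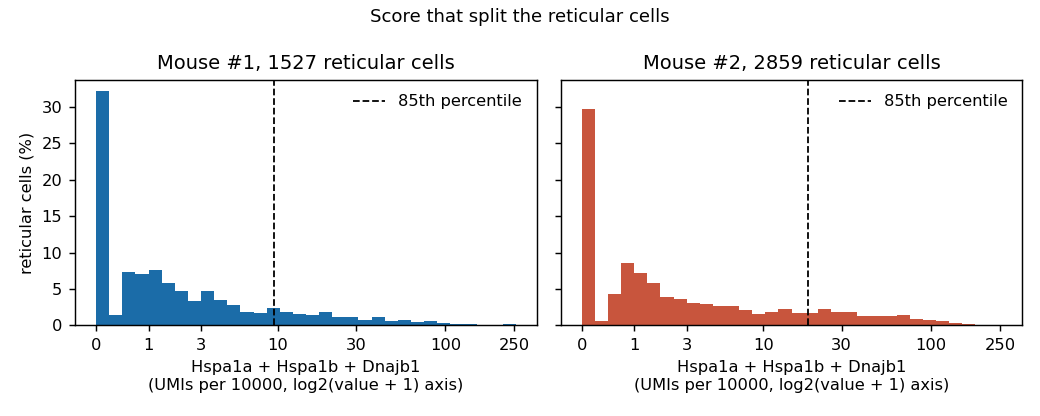
Histogram of the heat shock score (UMIs of Hspa1a, Hspa1b and Dnajb1 per 10000, on a log2(value + 1) axis) in the reticular cells of each mouse, in percent of its reticular cells, with the 85th percentile as a dashed line. The highest bar is at a score of 0 and the scores thin out through the thresholds of 9.52 (Mouse #1) and 19.0 (Mouse #2) without a gap.

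The mice differed in which of the 3 transcripts made the score. Hspa1a gave 30.4% of the score UMIs of members in Mouse #1 and 43.4% in Mouse #2, Hspa1b gave 36.9% and 37.7%, and Dnajb1 gave 32.7% and 18.9%. All 3 transcripts were captured in 44.98% and 65.3% of members. Members with Dnajb1 but neither HSP70 transcript were 22 cells (9.61%) in Mouse #1 and 6 cells (1.40%) in Mouse #2. Hspb1 (HSP27), a small heat shock protein outside the rule, stood at 47.3 CPM (counts per 10 to the sixth UMIs, exact Poisson 95% interval 25.8 to 79.3) in these 22 cells and at 423 CPM (398 to 450.) in the 172 members of Mouse #1 with both kinds of transcript. In Mouse #2 the 6 cells had 991 CPM (768 to 1259) and the 335 members with both kinds had 961 CPM (933 to 990.). The Dnajb1-only values rest on few cells, with 14 Hspb1 UMIs in 5 of the 22 cells of Mouse #1 and 67 UMIs in 2 of the 6 cells of Mouse #2, where 1 cell held 85.1% of them, so the mice are not compared on them. Hspa1a and Hspa1b lie near each other on chromosome 17 and their transcripts are 91.4% identical over the aligned bases, so the split of UMIs between them is uncertain.

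Members did not stand apart in depth or general quality. The median UMIs per cell were 12507 and 11784 in members and 12803 and 11641 in the other reticular cells, and the median mitochondrial share was 3.32% and 3.33% against 3.67% and 3.85%. The highest Scrublet doublet scores fell on 0.873% and 2.56% of members and on 2.54% and 3.46% of the other cells.

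The reticular label held in the members. Of 17 tested genes of reticular identity other than the markers of the rule, none passed the test described in the next paragraphs, 2 were higher with the mouse as a block (Foxc1 and Esm1), and the median log2 fold change of these 17 genes was 0.13, beside 0.01 over all genes. Gas6 stood at 3097 CPM in members and 3184 CPM in other cells of Mouse #1, and at 2775 and 2810 CPM in Mouse #2. Lepr, the leptin receptor gene, had 943 against 846 CPM and 1058 against 1106 CPM (log2 fold change 0.09 ± 0.16 SE, edgeR adjusted p = 0.914). Foxc1, a transcription factor of reticular cells, had 491 against 341 CPM and 609 against 339 CPM (0.75 ± 0.12, adjusted p = 0.175, and 0.000218 with the block). It and Esm1 were named after their values were seen.

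The comparison of members with the other reticular cells asks which transcripts outside the score went with it. UMIs were summed per mouse and class, so that 2 sums stood against 2, and tested with edgeR's quasi-likelihood test over 12696 genes. A gene was called at a Benjamini-Hochberg adjusted p under 0.05. Higher in members were 24 genes (0.189% of those tested) and lower were 7 (0.0551%). The members and the other cells came from the same mice, and with the mouse as a block 231 genes (1.82%) were higher and 194 (1.53%) lower, all 31 genes of the unblocked fit among them. The split was made with transcripts of the same cells, so a p-value without the block measures a difference against the spread between the sums of 2 mice, in cells already chosen by their score. With the block, the differences between mice are taken out first. That leaves little to estimate the spread of a single gene, which then rests largely on the spread shared over all genes. Very small p-values with the block therefore still rest on 2 mice. The median log2 fold change over all genes was 0.01.

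Part of the cytosolic chaperones outside the score were higher in members. Of 17 tested chaperones of the list, 5 were called higher and 0 lower, and with the block 8 were higher and 0 lower. The median of the 17 was a log2 fold change of 0.40. Only 11 of the 17 were positive, and the lowest was at -0.30. Summed over the list, chaperone transcripts reached 10085 CPM in members and 4550 CPM in other cells of Mouse #1, and 12340 and 4746 CPM in Mouse #2. Most of this sum came from Hspa8, Hsp90ab1, Hsp90aa1 and Dnaja1, so it does not describe every gene of the list.

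Hsp90aa1, the inducible HSP90 (chr12:110690605-110702728), had 2000.2 CPM in members and 531 CPM in other cells of Mouse #1, and 2689 and 583 CPM in Mouse #2. Its log2 fold change was 2.13 ± 0.16 (adjusted p = 0.0234). Both member sums lay above both others, and the member sums differed less between mice than from the other cells.

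The J-domain proteins hand unfolded clients to HSP70. Dnaja1 (chr4:40722150-40737149) had 1266 against 494 CPM in Mouse #1 and 1651 against 510. CPM in Mouse #2 (1.59 ± 0.14, adjusted p = 0.0360). Dnaja4 had 27.6 against 11.01 CPM and 30.8 against 10.3 CPM (1.52 ± 0.13, adjusted p = 0.0280). Dnajb4, named after its values were seen, had 260. against 146 CPM and 267 against 150.3 CPM (0.89 ± 0.09, adjusted p = 0.0426). Hspa8, the constitutive HSP70, was also higher, with 3498 against 1732 CPM and 3469 against 1726 CPM (1.07 ± 0.08, adjusted p = 0.0234).

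Other chaperones of the list passed only when the mouse was a block. In them the levels of both classes were higher in Mouse #2 than in Mouse #1. Hspb1 (chr5:135887919-135889563) had 421 CPM in members and 44.3 CPM in other cells of Mouse #1, and 915 and 78.4 CPM in Mouse #2. Its log2 fold change of 3.49 ± 0.46 missed the call without the block (adjusted p = 0.114) and passed with it (3.46, adjusted p = 1.91e-10). Hspb1 had been chosen as a marker of these cells with earlier results known. P-values of Hspb1, here and in later fits, are therefore no independent support for the state. Hsph1, the HSP110 nucleotide exchange factor (chr5:149614287-149636376), had 254 against 41.8 CPM and 480. against 69.0 CPM (2.78 ± 0.38, adjusted p = 0.126, and 7.42e-10 with the block). Hsp90ab1, the constitutive HSP90, had 2081 against 1243 CPM and 2565 against 1307 CPM (0.92 ± 0.12, adjusted p = 0.111, and 5.14e-06 with the block). In all 3 genes both member sums lay above both sums of other cells.

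Hspb1 transcripts were not spread evenly over members. Thinned to 2000 UMIs per cell, which left out 1 and 3 members and 4 and 10 other cells, Hspb1 was captured in 21.9% of members of Mouse #1 (Wilson 95% interval 17.0 to 27.7) and 32.6% of members of Mouse #2 (28.3 to 37.2). The share was 6.18% and 8.35% in other reticular cells. In Ptprc-positive blood cells, a background for free RNA, it was 0.508% and 1.06%. Without thinning, 37.1% and 45.9% of members held an Hspb1 UMI, at median depths of 12507 and 11784 UMIs in members and 10747 and 7785 UMIs in Ptprc-positive cells. Intervals cover counting error only.

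**Figure D2:**
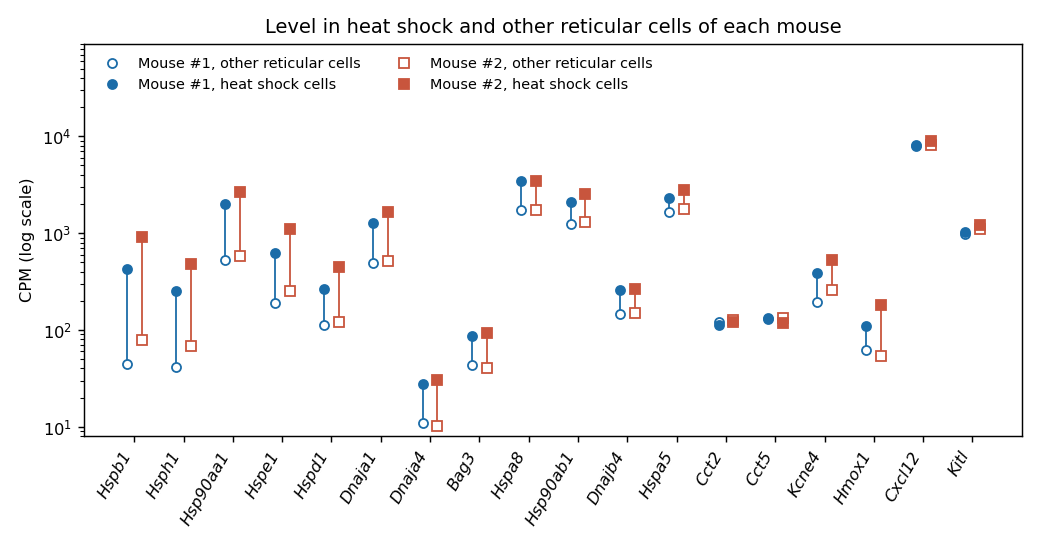
Level of 18 genes in heat shock reticular cells (filled) and other reticular cells (open) of each mouse, in CPM of the summed counts on a log scale, with a line joining the classes of a mouse. Hspb1 goes from 44.3 to 421 and from 78.4 to 915 CPM, while Cct2, Cct5, Cxcl12 and Kitl lie almost on top of each other.

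Among co-chaperones and regulators of heat shock, 2 of 21 tested genes were called higher and 0 lower, with 7 higher and 0 lower under the block and a median log2 fold change of 0.22. Bag3, which couples HSP70 to small heat shock proteins and selective autophagy, had 86.7 against 43.3 CPM in Mouse #1 and 92.5 against 40.4 CPM in Mouse #2 (1.16 ± 0.09, adjusted p = 0.0276). Hsf1, the heat shock factor itself, had 17.9 against 14.5 CPM and 15.3 against 14.2 CPM (0.25 ± 0.15, adjusted p = 0.698). Among the genes called under the block were Bag3, Ier5, Rgs2, Tsc22d2 and Zfand2a, of which Ier5, Rgs2, Tsc22d2 and Zfand2a were named after their values were seen, as was Hsf1.

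Chaperonin subunits did not share this difference. The TRiC complex folds actin and tubulin in the cytosol, and 0 of 7 tested subunits were called, also with the block, at a median log2 fold change of -0.04. Cct5 had 132 against 129.96 CPM and 118 against 133 CPM (-0.02 ± 0.10, adjusted p = 0.993). Proteasome subunits were likewise close to level, with 0 of 31 called in either fit and a median of -0.02.

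In mitochondria, HSP60 (Hspd1) and its lid HSP10 (Hspe1) fold imported proteins. Of 9 tested mitochondrial chaperones and proteases 0 were called, and with the block 2 were higher and 0 lower. Hspe1 (chr1:55088132-55091307) had 624 against 190. CPM in Mouse #1 and 1113 against 252 CPM in Mouse #2 (2.02 ± 0.30, adjusted p = 0.140, and 2.75e-08 with the block). Hspd1 had 267 against 112 CPM and 445 against 121 CPM (1.66 ± 0.24, adjusted p = 0.138, and 1.29e-06 with the block). The median of the 9 genes was 0.16, and Trap1, the mitochondrial HSP90, which was named after its values were seen, had 31.2 against 29.5 CPM and 32.6 against 29.6 CPM. The pair Hspe1 and Hspd1 overlap at their starts on opposite strands.

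The endoplasmic reticulum has its own chaperones and its own stress response. Of 17 tested genes of this list 0 were called, and with the block 4 were higher and 0 lower, at a median of 0.09. Hspa5 (BiP) had 2320. against 1640. CPM and 2762 against 1795 CPM (0.62 ± 0.11, adjusted p = 0.231, and 0.000134 with the block). The others called with the block were Serpinh1 (the collagen chaperone HSP47), Ddit3 and Herpud1. Ddit3 and Herpud1 were named after their values were seen.

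Genes of oxidative and metal stress did not move together. Of 11 tested 0 were called, and with the block Hmox1 was higher and Srxn1 lower, both named after their values were seen. Hmox1, which degrades heme, had 109 against 61.8 CPM and 181 against 53.8 CPM (1.39 ± 0.23, adjusted p = 0.198, and 0.000104 with the block). Mt1, a metallothionein, had 707 against 501 CPM in Mouse #1 and 311 against 624 CPM in Mouse #2. The mice were opposite in Mt1, and also in the p53 target Cdkn1a, with 271 against 204 CPM and 167 against 432 CPM.

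Along the score, the summed cytosolic chaperones and the summed mitochondrial chaperones were at a higher level with each step of rank in both mice. The first step is not a step of the score alone. A score of 0 was held by 491 and 850 cells, more than the 382 and 715 cells at ranks 0 to 25%. Tied cells thus fell on both sides of that limit, and the score does not order them. At ranks 0 to 25% of the score, the cytosolic chaperone list had 3644 and 3768 CPM. It had 6774 and 7381 CPM at ranks 75 to 85%, just outside the group, 8668 and 10231 CPM at ranks 85 to 95%, and 13046 and 16766 CPM in the top 5%. The cells just outside the group were thus already above the lowest ranks. Hspb1 was 32.2 and 33.6 CPM at ranks 0 to 25%, 26.6 and 50.7 CPM at ranks 25 to 50%, 41.5 and 79.0 CPM at ranks 50 to 75%, 126 and 239 CPM at ranks 75 to 85%, 190. and 613 CPM at ranks 85 to 95% and 906 and 1558 CPM in the top 5%. The mitochondrial list stayed between 600. and 653 CPM below the 85th percentile in Mouse #1 and reached 2024 CPM in the top 5%, while in Mouse #2 it was 976 CPM already at ranks 75 to 85% and 2667 CPM in the top 5%. TRiC subunits stayed between 698 and 819 CPM over all ranks of both mice.

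**Figure D3:**
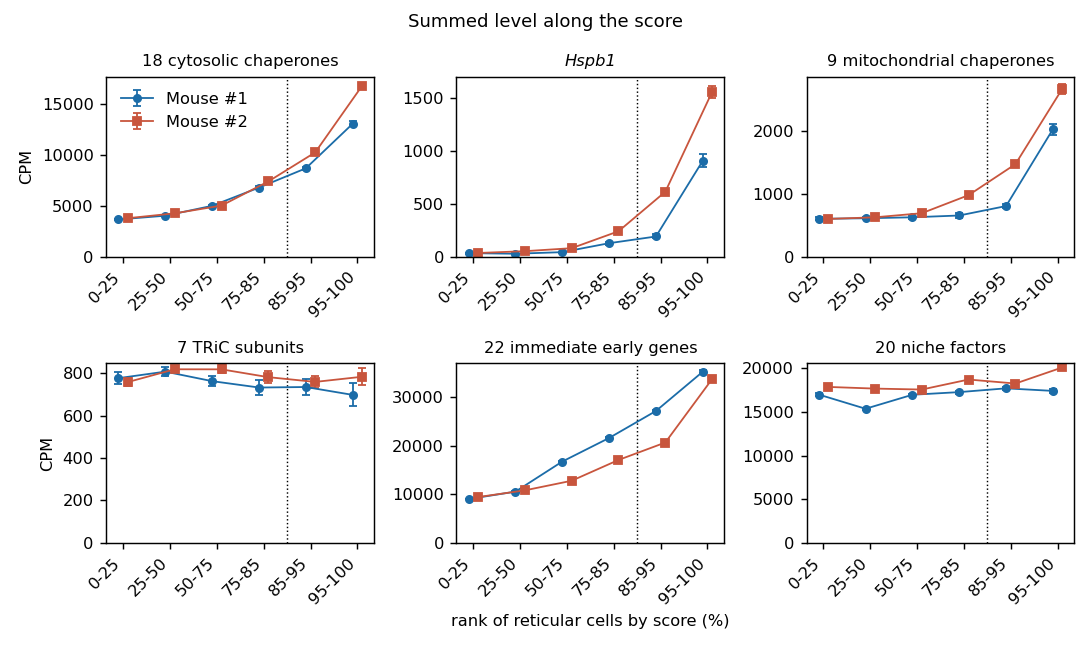
Summed level of 5 gene lists and of Hspb1 (CPM, exact Poisson 95% intervals) in reticular cells by rank of the heat shock score in their mouse (percent), with the 85th percentile as a dotted line. Cytosolic chaperones go from 3644 to 13046 CPM in Mouse #1 and from 3768 to 16766 CPM in Mouse #2, and TRiC subunits stay between 698 and 819 CPM.

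Immediate early genes, which respond within minutes to many stimuli and to tissue dissociation, were higher in the same cells. Of 22 tested, 6 were called higher (Jun, Egr1, Zfp36, Klf2, Dusp1 and Gadd45g) and 0 lower, and with the block 17 were higher and 0 lower. The median log2 fold change of the 22 was 1.08. Jun, a subunit of AP-1, had 5113 against 1698 CPM in Mouse #1 and 4966 against 1419 CPM in Mouse #2 (1.75 ± 0.11, adjusted p = 0.0114). Fos, its partner, had 4744 against 1561 CPM and 3749 against 969 CPM (1.81 ± 0.25, adjusted p = 0.126, and 7.02e-09 with the block). Dusp1, a phosphatase of MAP kinases, had 1165 against 388 CPM and 1150. against 400.3 CPM (1.61 ± 0.09, adjusted p = 0.0113).

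The immediate early genes and the score overlapped only in part. The summed immediate early genes had a median of 241 and 228 UMIs per 10000 in members and 93.6 and 100.5 in other cells. Of members, 37.1% in Mouse #1 (31.1 to 43.5) and 47.8% in Mouse #2 (43.1 to 52.5) were also in the top 15% of reticular cells for these genes, against 11.1% and 9.22% of other cells. Below the reticular median for immediate early genes were 33 members (14.4%) and 61 members (14.2%). The chaperone list had 5316 and 6550. CPM in these members, against 3487 and 3872 CPM in other cells below that median. Hspb1 had 142 and 551 CPM in them, against 28.8 and 41.8 CPM. At or above the median the chaperone list had 10741 and 13384 CPM in members and 5859 and 5895 CPM in other cells.

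Other reticular cells were then matched to members 1 to 1 on their summed immediate early genes. Without the block no gene was called among 11067 (0%), with 473 genes at an unadjusted p under 0.05. With the block 94 genes were higher (0.849%) and 109 lower (0.985%), and among them 8 of 16 tested cytosolic chaperones were higher. Hspb1 then had a log2 fold change of 2.42 ± 0.10 (adjusted p = 3.15e-09), Hsph1 of 2.00 ± 0.10 (2.66e-08), Hspd1 of 1.40 ± 0.10 (6.39e-07) and Kcne4 of 0.61 ± 0.10 (0.00417). Before matching, with the block, these 4 genes had 3.46, 2.76, 1.63 and 1.05. Also smaller after matching, and still called with the block, were Hspa8 (1.07 to 0.55), Dnajb4 (0.89 to 0.38), Rasl11a (1.78 to 0.84), Gm26532 (1.66 to 0.69), Phlda1 (1.53 to 0.61) and Btg2 (1.40 to 0.42). Of 21 tested immediate early genes Jun and Dusp1 were still higher and Fosb, Klf4 and Gadd45b lower, the last 3 named after their values were seen. What part the immediate early genes have in the unmatched differences was not tested beyond these values.

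Kcne4 encodes an accessory subunit of voltage-gated potassium channels (chr1:78816758-78820028) and had been chosen as a marker of these cells with earlier results known. It had 384 CPM in members and 197 CPM in other cells of Mouse #1, and 528 and 261 CPM in Mouse #2 (1.05 ± 0.21, adjusted p = 0.255, and 4.51e-06 with the block). Both member sums lay above both sums of other cells. Of 14 potassium channel genes 4 passed the filter on low counts, and none of the other 3 was called in either fit. Thinned to 2000 UMIs, Kcne4 was captured in 35.1% and 46.7% of members, 25.6% and 32.4% of other reticular cells, and 0.508% and 2.12% of Ptprc-positive cells. Unthinned, these shares were 67.2% and 76.7%, 56.2% and 67.1%, and 3.05% and 3.70%.

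Other genes with the largest calls were not on any list. Rasl11a, a small GTPase of the RAS family, had 336 against 109 CPM in Mouse #1 and 353 against 99.5 CPM in Mouse #2 (1.78 ± 0.09, adjusted p = 0.0113). Dusp6, an ERK phosphatase, had 33.1 against 11.8 CPM and 39.4 against 11.1 CPM (1.73 ± 0.13, adjusted p = 0.0234). The noncoding Gm26532 (1.66 ± 0.09, adjusted p = 0.0113) and Phlda1 (1.53 ± 0.09, adjusted p = 0.0114) were also higher. A second noncoding RNA, Gm26825, named after its values were seen, had 102 against 29.1 CPM and 177 against 37.5 CPM (2.12 ± 0.28, adjusted p = 0.114, and 5.82e-08 with the block).

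**Figure D4:**
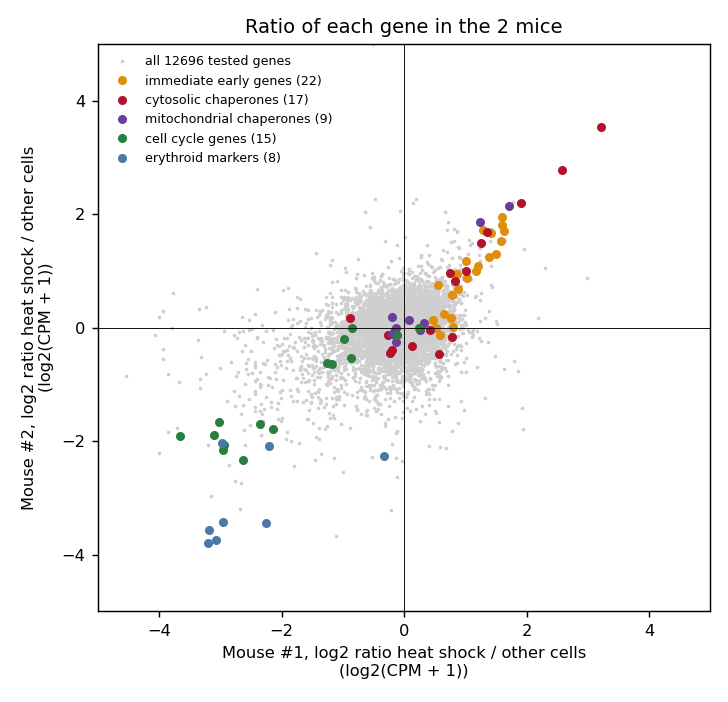
Log2 ratio of heat shock to other reticular cells, as a difference of log2(CPM + 1), in Mouse #1 (x axis) and Mouse #2 (y axis) for the 12696 tested genes, with 5 lists coloured and 1 gene beyond the axes at 5 left off. Hspb1 is the chaperone farthest to the upper right, at 3.22 and 3.53, most immediate early genes are also positive in both mice, and erythroid and many cell cycle genes are negative in both.

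In other stress and signalling lists few genes were called without the block. Btg2, an antiproliferative target of p53, was the 1 gene of 10 p53 targets called, with 1272 against 472 CPM and 1058 against 445 CPM (1.40 ± 0.12, adjusted p = 0.0360). Of 18 inflammatory genes 0 were called, and with the block 3 were higher (the chemokines Ccl7 and Cxcl1, and Ptx3) and 0 lower, at a median log2 fold change of 0.25. Of 16 interferon response genes 0 were called, and with the block 2 were higher (Irf1 and Iigp1) and 1 lower (Gbp2), at a median of 0.08. These 6 genes were named after their values were seen. Both lists held a larger share of higher genes than all tested genes, of which 1.82% were higher and 1.53% lower with the block. None of the 6 was called with the block after matching on immediate early genes. Of 16 inflammatory genes then tested, 1 was higher (Lcn2) and 1 lower (Cxcl10), both named after their values were seen. Of 16 interferon response genes 0 were called in that fit, in which 0.849% of all tested genes were higher and 0.985% lower. Of 32 ribosomal protein genes and 13 genes of the mitochondrial genome 0 were called in either fit, at medians of -0.08 and -0.12. Of 5 nuclear RNAs Malat1 was called, with the block only (0.27 ± 0.08, adjusted p = 0.485, and 0.0216 with the block).

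Most niche factors were close to level, with exceptions under the block. Of 20 tested, 0 were called, and with the block 3 were higher and 1 lower, at a median of 0.15. Over all tested genes 1.82% were higher and 1.53% lower with the block, smaller shares than in this list. Cxcl12 had 8112 against 7898 CPM and 8874 against 8087 CPM (0.14 ± 0.08, adjusted p = 0.680), and Kitl had 1025 against 990.1 CPM and 1212 against 1101 CPM (0.15 ± 0.12, adjusted p = 0.769). Il7 had 141 against 128 CPM and 155 against 135 CPM (0.22 ± 0.10, adjusted p = 0.602). A p that misses the threshold does not show that these levels are the same. Called with the block, and named after their values were seen, were Bmp4, Grem1 and Fgf7 as higher and Tnfsf11 (RANKL), which drives osteoclast formation, as lower. Tnfsf11 had 349 against 470. CPM and 438 against 719 CPM (-0.54 ± 0.23, adjusted p = 0.602, and 0.00643 with the block). After matching on immediate early genes, with the block, 1 of the 20 genes was higher (Bmp4) and 1 lower (Tnfsf11). In that fit 0.849% of all tested genes were higher and 0.985% lower. Fgf7 also missed the call with the block when cells rich in blood markers, described below, were left out (edgeR adjusted p = 0.126).

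Of the 3 reporter features, 0 were called, and with the block iCreER was higher. The eGFP feature had 11745 against 11276 CPM and 11912 against 11224 CPM (0.13 ± 0.07, adjusted p = 0.675). tdTomato had 905 against 690. CPM in Mouse #1 and 879 against 1082 CPM in Mouse #2, opposite in the mice. Cells above the 99th percentile of tdTomato in Ptprc-positive cells made up 44.98% and 45.2% of members, against 36.1% and 47.9% of other reticular cells. The iCreER feature, named after its values were seen, had 25.3 against 10.2 CPM and 35.3 against 15.02 CPM (1.32 ± 0.25, adjusted p = 0.240, and 8.64e-05 with the block). Reporter and recombinase features could share sequence stretches, which would leave their counts uncertain.

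In the cell cycle list, transcripts of several genes were scarce in members. Of 15 tested genes 0 were called, and with the block 8 were lower and 0 higher, at a median log2 fold change of -2.30 without the block. Mki67, a marker of cycling cells, had 3.57 against 33.9 CPM in Mouse #1 and 3.60 against 18.4 CPM in Mouse #2, from 11 and 20 UMIs in members. Named after its values were seen, it had an adjusted p of 0.138, and of 5.86e-06 with the block. At 2000 UMIs per cell, at least 2 UMIs of 12 cycle genes were found in 1 of 228 members of Mouse #1 (0.439%) and 3 of 426 members of Mouse #2 (0.704%), against 4.25% and 1.86% of other cells. Without cells that carried blood markers (next paragraph) 8 genes were again lower with the block (0.666% of 12467 genes tested, and 1.33% higher), at a median of -1.71. After matching on immediate early genes 10 of the 15 genes could be tested and 0 were called in either fit, at a median of -0.31 without the block.

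Of the 7 genes called lower without the block, 5 were erythroid. Of 8 erythroid genes in the list these 5 were called, and 7 of the 194 lower genes with the block were on that list. Cd24a and Ucp2 were the other genes called lower without the block. Hbb-bs, an adult beta globin, had 292 against 2281 CPM and 226 against 2448 CPM (-3.14 ± 0.16, adjusted p = 0.0113). The UMIs sat in few cells. Cells with 0.5% or more of their UMIs from blood marker genes numbered 5 members in each mouse and 52 and 65 other cells, and held 91.9% and 93.1% of the Hbb-bs UMIs of other cells. Without them Hbb-bs had 220. against 198 CPM and 183 against 177 CPM, and 0 erythroid genes were called in either fit. The globin genes are near-identical copies (Hba-a1 and Hba-a2, and Hbb-bs and Hbb-bt), so their single values are uncertain. Hspb1 was 424 against 47.3 CPM and 922 against 82.3 CPM without these cells, and 22 genes were called higher (0.176%) and 1 lower (0.00802%). With the block 166 were then higher and 83 lower. The gene lower without the block was Cenpf, a kinetochore protein gene of dividing cells named after its values were seen, at 1.30 against 19.5 CPM and 0.720 against 12.4 CPM in the sums with all cells.

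Of 16 hematopoietic genes 0 were called, and with the block 6 were lower. Their summed level was 1233 against 9492 CPM in Mouse #1 and 2937 against 3161 CPM in Mouse #2. A single member held 78.3% of the S100a8 UMIs of members in Mouse #1, and a single member held 94.6% in Mouse #2. Without the cells rich in blood markers 0 of 15 hematopoietic genes were called in either fit.

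Markers of other cells that a Cxcl12-GFP gate could hold were looked at as lists. Endothelial markers summed to 26.0 against 80.7 CPM in Mouse #1 and 36.7 against 33.3 CPM in Mouse #2, with 2 and 1 of the 10 genes at 0 in members. Mural markers were 184 against 268 CPM and 287 against 291 CPM with none of 6 at 0, and chondrocyte markers were 67.5 against 82.0 CPM and 151 against 129 CPM with 4 and 3 of 6 at 0. Periosteal markers were 1419 against 1001 CPM and 705 against 1110. CPM, opposite in the mice. No gene of these 4 lists was called in either fit. Of 13 osteoblast genes 0 were called, and with the block 2 were higher and 2 lower. The 2 higher genes were Bglap and Bglap2, near-identical copies of the osteocalcin gene named after their values were seen, and 1 cell held 87.7% of the Bglap UMIs and 86.7% of the Bglap2 UMIs of members in Mouse #2.

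Osteoblastic cells of the same mice were split in the same way to see whether the transcripts that go with the score are particular to reticular cells. These were cells with Alpl, Wif1, Kcnk2 and Spp1 at 10 or more UMIs per 10000 and above the reticular markers, and the top 15% were 52 of 344 and 119 of 793 cells, with lower thresholds of 3.33 and 10.5 UMIs per 10000. Of 11253 genes 5 were called higher (0.0444%), namely Egr1, Ier2, Rhob, Gem and Grem1, and 0 lower (438 at an unadjusted p under 0.05). With the block 39 were higher (0.347%) and 3 lower (0.0267%). Hsph1 had 144 against 30.1 CPM and 254 against 46.8 CPM in osteoblastic cells (2.44 ± 0.33, adjusted p = 0.131, and 0.000739 with the block). Of the 24 genes higher in heat shock reticular cells, 21 had a positive ratio in osteoblastic cells of both mice, as did 18.4% of all genes, and 1 of them (Egr1) was called. The median log2 fold change of the 24 was 1.32 in osteoblastic and 1.39 in reticular cells.

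The difference between the cell classes was tested as an interaction over 12302 genes. No gene was called (0%), with 546 at an unadjusted p under 0.05, and also none with the block (633 unadjusted), while DESeq2 called 6 (0.0488%) with the smaller effect in reticular cells. Hspe1 had the larger fold change in reticular cells by 1.07 ± 0.43 on the log2 scale (unadjusted p = 0.0386, adjusted p = 1.00), Hsp90aa1 by 0.79 ± 0.29 (unadjusted p = 0.0278, adjusted p = 1.00), and Kcne4 by 0.44 ± 0.33 (unadjusted p = 0.211, adjusted p = 1.00). None of these can be called particular to reticular cells from these sums. Hspb1 was far lower in osteoblastic than in reticular cells. In osteoblastic cells it had 9.31 CPM in the top 15% against 3.47 CPM in the others of Mouse #1, and 57.8 against 12.2 CPM in Mouse #2. In reticular cells it had 421 CPM in members against 44.3 CPM in the others, and 915 against 78.4 CPM. Its fold change was larger in reticular cells by 1.25 ± 0.99 on the log2 scale, with an unadjusted p of 0.241 in the interaction test.

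The score was not confined to reticular cells. Above the reticular threshold of their library were 6.10% (4.03 to 9.15) of 344 and 8.45% (6.71 to 10.6) of 793 osteoblastic cells, 5.08% and 4.76% of Ptprc-positive cells, and 30.8% (23.9 to 38.7) of 146 and 10.1% (6.09 to 16.2) of 139 endothelial cells, against 15% of reticular cells by construction. The share of endothelial cells lay above the reticular share in Mouse #1, and in Mouse #2 its interval took in the reticular share. With cells thinned to 2000 UMIs it was 38.4% (30.9 to 46.4) against 18.9% of reticular cells in Mouse #1 and 8.63% (5.01 to 14.5) against 15.8% in Mouse #2, opposite in the mice. With 2 mice no test of these shares was made. Free RNA, measured in barcodes of 1 to 100 UMIs, held 169 to 300.1 CPM of each score gene.

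**Figure D5:**
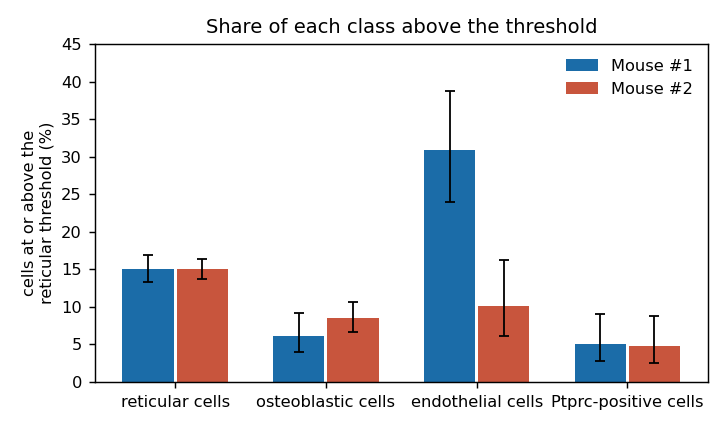
Share of cells of each class above the reticular heat shock threshold of their mouse, in percent, with Wilson 95% intervals. Endothelial cells are at 30.8% and 10.1%, osteoblastic cells at 6.10% and 8.45%, and Ptprc-positive cells at 5.08% and 4.76%.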

How the data were processed

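Droplet libraries of 2 mice were analysed, 1 per mouse. The authors deposited raw UMI counts per feature and barcode, made with Cell Ranger 3.0.0 per the file headers on mm10 with 8 added reporter or recombinase features (28006 features, 6794880 barcodes each). The annotation release was not given in the sources used here. The 3′ kit keeps strand. Bag3 and Dusp1 overlap other annotated genes on their own strand, which could split their counts. Gene positions are GRCm38.

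A barcode counted as a cell from 1000 detected genes upward, with a mitochondrial share of UMIs up to 15%. Doublets were kept, and the highest Scrublet scores were left out as an alternative. The members and gene lists were chosen with earlier results of these data known. UMIs were summed per mouse and class and tested with edgeR 4.0.16 (R 4.3.3; glmQLFit, TMM scaling, filterByExpr), adjusting over all tested genes. The SE is the log2 fold change divided by the square root of the F statistic. CPM refers to all UMIs of the summed class. The 3 score genes and the 9 other genes of the cell rule stayed in the fit and got no p-value. Named were the 10 largest and 10 smallest called changes with the same direction in both mice and at least 10 CPM in the higher class, the 4 largest calls and 2 highest levels of each list, and Hspb1, Kcne4, Hspa8, Hsp90aa1, Hsph1, Bag3, Hspa5, Fos, Cxcl12, Kitl, Il7, Lepr, eGFP and tdTomato. Other named genes were chosen after their values were seen, and some results are not reported here.

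Classes of a mouse come from 1 animal, and their deviations from the class means correlated at 0.278 (reticular) and 0.277 (osteoblastic), so the fit with the mouse as a block is given where it changes a call. Alternatives were DESeq2 1.42.0, RLE scaling, no filter, other score limits, stricter cells, matching on UMIs and leaving out each mouse. The test was tried on simulated counts with known changes, drawn without a mouse effect and without a choice of cells by a score. It therefore does not show how the test behaves on paired sums chosen by a score. Of 2-fold changes it recovered 100% in the reticular and 98% in the osteoblastic comparison, and 68% in the interaction.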

Additional observations from a re-analysis of the deposited data

How the results depend on the processing

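The 31 genes called in heat shock reticular cells were all called with the replicate block (425 calls, 231 higher and 194 lower), with DESeq2 (162) and with no filter on low counts (390), and with RLE scaling the same number was called. Fewer were called at the 75th percentile of the score (3) and without the highest Scrublet scores (19), and more after matching on total UMIs (50, of which 22 were among the 31). Among alternatives chosen after seeing the data, matching on immediate early genes gave 0 (473 at an unadjusted p under 0.05) and 203 with the replicate block, and leaving out cells rich in blood markers gave 249 with the replicate block. In that alternative the globin fold changes turned positive, at 0.20 and 0.19 (without and with the replicate block) for Hba-a1, 0.081 and 0.087 for Hba-a2, 0.14 and 0.15 for Hbb-bt and 0.16 and 0.15 for Hbb-bs. With immediate early genes matched and the replicate block, S100a8 was at 1.89 and S100a9 at 1.97. In each mouse 1 member held most of the S100a8 UMIs of members, 78.3% in Mouse #1 and 94.6% in Mouse #2. The matched fit was not repeated without these cells, so their part in the 2 values was not tested.

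Osteoblastic calls numbered 5, and 42 with the replicate block, 35 with DESeq2, 178 with no filter, and 0 at the 75th and at the 90th percentile (350 and 649 at an unadjusted p under 0.05). Differences between the classes numbered 0, and 6 with DESeq2 and 175 with no filter. The causes were not tested.

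The share above the reticular threshold, as a mean of the mice, was 7.28% in osteoblastic cells, 15.6% at the 75th and 4.13% at the 90th percentile, and 9.87% with cells thinned to 2000 UMIs. It was 20.4% in endothelial cells and 35.4% at the 75th percentile, and 4.92% in Ptprc-positive cells, 7.26% at the 75th and 3.88% at the 90th percentile and 3.91% with stricter cells. Leaving out a mouse gave 6.10% to 8.45%, 10.1% to 30.8% and 4.76% to 5.08%.

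Leaving out either mouse leaves 1 sum against 1, which gives differences in log2(CPM + 1) and no test, so no count of calls could be had. In Hspb1 these were 3.22 and 3.53, and in Hsp90aa1 1.91 and 2.20. Of 2241 values of 125 named genes under 18 alternatives, 1834 kept direction and side of the threshold, 81 lost and 221 gained a call, 10 changed sign, and 95 values without a mouse moved by more than the spread between mice.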

Other observations

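Endothelial cells (Cdh5 at least 2 UMIs) split in the same way gave 22 and 21 cells at the top against 124 and 118, with no test. This split was chosen after seeing the data. Hspb1 had 3297 against 368 CPM in Mouse #1 and 1540. against 199 CPM in Mouse #2, differences in log2(CPM + 1) of 3.16 and 2.95. Hsp90aa1 had ratios of 1.95 and 1.14 and Hsph1 of 2.13 and 0.66. Egr1 had 2765 against 315 CPM and 1292 against 210. CPM. Kcne4 had ratios of 0.34 and -0.71, from levels of 3.49 to 21.3 CPM, so that the mice were opposite in it.

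Several genes of other functions were called with the mouse as a block in heat shock reticular cells and were named after their values were seen. Adrb3, an adrenergic receptor gene, was higher (14.3 against 5.51 CPM and 12.4 against 4.09 CPM, adjusted p = 0.00160 with the block). Hes1, a target of Notch signalling, was higher in both fits (593 against 284 CPM and 726 against 249 CPM, adjusted p = 0.0410 without the block), and so was Hoxa9 (142 against 74.6 CPM and 163 against 75.05 CPM, adjusted p = 0.0410). Txnip, which binds thioredoxin, was higher with the block (140. against 79.0 CPM and 161 against 54.8 CPM, adjusted p = 5.63e-05).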
